A study of Homo sapiens with 10 samples.

Results

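The 10 genes examined here encode core proteins that make microRNAs (miRNAs) and carry out silencing by them in human cells. They are the Argonaute genes AGO1, AGO2 and AGO3, the TNRC6 genes TNRC6A and TNRC6B, the microprocessor genes DROSHA and DGCR8, the export receptor gene XPO5, and DICER1 with the gene of its partner TARBP2. The genes were picked by name as known members of the pathway, and they are 10 of the 58395 genes counted. All 10 were detected in every library, at 122 to 3596 raw counts, and all 10 were among the 16905 genes that passed the filter on low counts.

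In the nucleus, DROSHA and DGCR8 cut a hairpin out of a long primary transcript, and XPO5 carries it to the cytoplasm with the GTPase RAN. DICER1, helped by TARBP2, cuts the hairpin to a short duplex, and an Argonaute protein keeps a single strand of it as guide. The guide finds messenger RNAs mainly through its seed near the 5′ end, and the TNRC6 scaffold proteins then bring in the enzymes that remove poly(A) tails and caps.

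The RNA came from HeyA8, an established human ovarian cancer cell line, parental per the labels, which was transfected with 1 of 3 siRNA duplexes at 10 nM. siNT1 S2'OM (siNT1 below) was the non-targeting control. The other duplexes, siMxy and si34a in the labels, are called siGGGGGC and siGGCAGU here. These names give the 6mer seed, bases 2 to 7 of the guide. The authors reported that both of these duplexes slowed growth and lowered viability of HeyA8 cells, while siNT1 was nontoxic. In a comparison with siNT1, an effect of the seed cannot be told apart from one of slowed growth or cell death. Cells were lysed 24 h or 48 h after siNT1 or siGGGGGC and 48 h after siGGCAGU, with 2 libraries in each of the 5 groups, so every group carried a transfected duplex and no untransfected cells were analysed here. In all 3 duplexes the methods show 2′-O-methyl groups at the 5′ end of the sense strand. The duplicates were wells of a reverse transfection of a single cell line, so the p-values measure the spread between wells and libraries, and wells lysed at 48 h had a change of medium at 24 h.

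Total counts ranged from 19781445 to 42428986 per library, and the small RNA genes RN7SL2 and SNORD3A took 19.83% to 31.96% of them. The epithelial keratin genes KRT7, KRT8 and KRT18 (1850 to 9870 normalized counts), the mesenchymal gene VIM (19500 to 37500) and the ovarian lineage gene PAX8 (82.9 to 867) were detected throughout. EPCAM did not exceed 38.7 and the ovarian cancer antigen gene MUC16 did not exceed 29.6, with 0 counts in 4 libraries. The leukocyte markers PTPRC, CD3E and CD68 did not exceed 4.99 normalized counts, and the endothelial markers PECAM1, CDH5 and VWF did not exceed 38.2. In the siNT1 group at 48 h, library 1 lay above library 2 for all 10 genes, and its RN7SL2 and SNORD3A share was 19.83% against 23.91%. In the siGGCAGU group these shares were 31.96% and 24.22%. The chi-square per degree of freedom between the counts of a pair was 42.5 with siGGCAGU, 31.4 with siNT1 at 48 h and 2.29 to 11.2 in the other pairs. The number of the 10 genes called was the same in all 6 comparisons when RN7SL2 and SNORD3A were taken out of the library sizes. In bulk RNA, fewer cells of a type and less RNA per cell cannot be told apart.

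To show which miRNAs have the same 6mer seeds as the duplexes, mature human miRNAs were taken from RefSeq (GRCh38.p14). Those with GGCAGU at bases 2 to 7 included miR-34a-5p, miR-449a, miR-449b-5p and miR-548au-3p, and those with GGGGGC included miR-1237-5p and miR-4488. Capitals mark bases 2 to 8 of the miRNA.
hsa-miR-34a-5p, chr1:9151735-9151756, minus strand: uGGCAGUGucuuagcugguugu
hsa-miR-449a, chr5:55170586-55170607, minus strand: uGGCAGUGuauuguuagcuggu
hsa-miR-1237-5p, chr11:64368651-64368671, plus strand: cGGGGGCGgggccgaagcgcg
hsa-miR-4488, chr11:61508599-61508616, plus strand: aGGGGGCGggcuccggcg

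A seed match is the reverse complement of the seed. The siGGGGGC duplex matches the word GCCCCC, siGGCAGU matches the word ACTGCC, and the control siNT1 matches CGACTA. The longest 3′ UTR annotated for each gene in GENCODE release 44 (hg38) was searched on the transcribed strand. GCCCCC was found in 4 of the 10 genes, with 7 copies in AGO2, 4 in TNRC6B, 2 in DGCR8 and 1 in AGO1, where 30.2% of 19248 protein-coding genes held it. ACTGCC was found in 7 of the 10, with 5 copies in TNRC6B, 3 each in AGO1, AGO2 and AGO3, and 1 each in XPO5, DICER1 and TARBP2, where 32.7% of genes held it. CGACTA was found in XPO5 alone of the 10, where 2.74% of genes held it, so XPO5 carries a match to the seed of the control duplex. DROSHA and TNRC6A held none of the 3 words in this window. The AGO1, AGO2, AGO3 and TNRC6B UTRs are 10925 to 16755 bases long, longer than over 99% of genes (99.2% to 99.8%), whose median was 1228 bases. In the shortest annotated UTRs, GCCCCC was left in 1 of the 10 genes (DGCR8) and ACTGCC in 2 (XPO5 and TARBP2).

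A selection of sites is shown, from genes that were called with the duplex concerned or hold a single match to it, and those of AGO1 and AGO2 are not shown. Capitals mark the seed match, the coordinates are those of the 6 capital letters in hg38, and each run of 30 bases reads 5′ to 3′ along the transcript.
XPO5 with siGGCAGU, chr6:43523781-43523786, minus strand: ggcccttcttgcACTGCCacctcactttcc
XPO5 with siNT1, chr6:43523492-43523497, minus strand: tgcccaaccctgCGACTAgcaaggctcgca
DICER1 with siGGCAGU, chr14:95089288-95089293, minus strand: cgtttgcgataaACTGCCgtaattttgata
TARBP2 with siGGCAGU, chr12:53506266-53506271, plus strand: cctctgacacagACTGCCtgccttgaagct
AGO3 with siGGCAGU, chr1:36071819-36071824, plus strand: agactaaacttgACTGCCatattttaagag
TNRC6B with siGGCAGU, chr22:40324228-40324233, plus strand: gtagagtggagcACTGCCaagtccaaaaaa
TNRC6B with siGGCAGU, chr22:40329820-40329825, plus strand: aaagttgcagtaACTGCCagtgtttgcctc
TNRC6B with siGGGGGC, chr22:40334818-40334823, plus strand: acgtctctctttGCCCCCtttagacagaag
DGCR8 with siGGGGGC, chr22:20111338-20111343, plus strand: gtcccccaccatGCCCCCtacaggcggtac

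**Figure D1:**
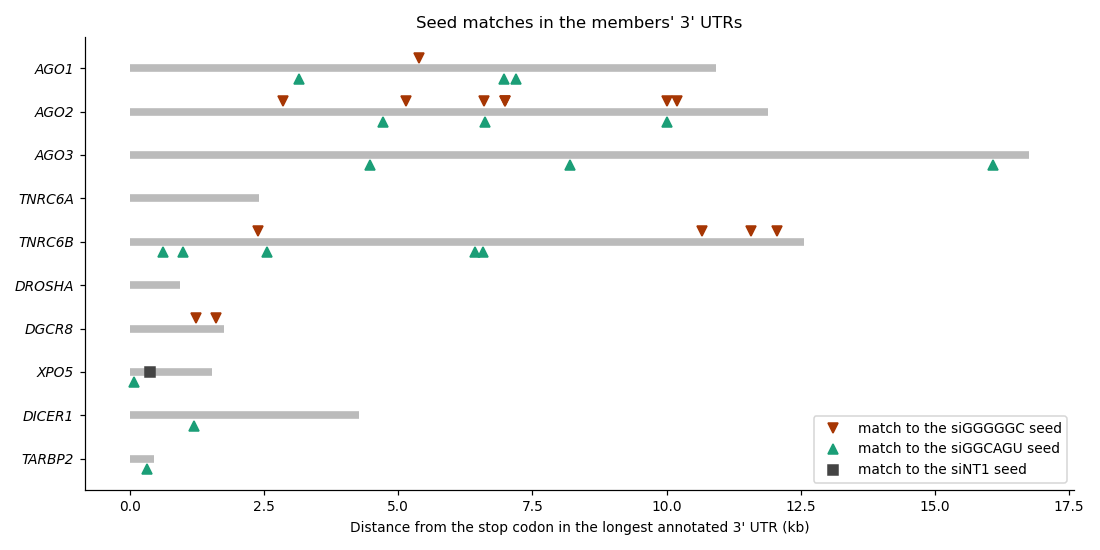
Seed matches in the longest annotated 3′ UTR of each gene. The x axis is the distance from the stop codon in kb, grey bars are the UTRs, triangles pointing down are GCCCCC (siGGGGGC), triangles pointing up are ACTGCC (siGGCAGU) and the square is CGACTA (siNT1). The AGO2 UTR holds 7 GCCCCC matches and TNRC6B 5 ACTGCC matches, while DROSHA and TNRC6A hold none.

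To determine whether the pathway genes responded to the duplexes, each was tested against siNT1 of the same time with the edgeR quasi-likelihood test, and a gene was called when its Benjamini-Hochberg adjusted p over 16905 genes was below 0.05. At 24 h siGGGGGC raised 5 of the 10 genes (AGO2, AGO3, DGCR8, TNRC6A and TNRC6B) and lowered 1 (DROSHA), where 10.6% of all genes tested were called higher, 8.31% lower and 18.9% in either direction. At 48 h siGGGGGC raised 4 (AGO2, AGO3, TNRC6A and TNRC6B) and lowered 2 (DROSHA and TARBP2), where 27.8% of all genes were higher, 27.5% lower and 55.3% either, so that 6 of 10 lay near the background. With siGGCAGU at 48 h, 2 were higher (AGO3 and TNRC6B) and 3 lower (DICER1, DGCR8 and XPO5), where 27.8% of all genes were higher, 24.9% lower and 52.7% either, again near the background. The median log2 fold change of the 10 was 0.31 at 24 h, 0.0085 with siGGGGGC at 48 h and -0.16 with siGGCAGU, beside medians of all genes of 0.0038, -0.011 and 0.024. The count at 24 h fell to 2 without siNT1 replicate 1 and to 3 without siGGGGGC replicate 2, and the count with siGGCAGU rose to 8 without siNT1 replicate 2 at 48 h. Both comparisons at 48 h share the siNT1 libraries.

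**Figure D2:**
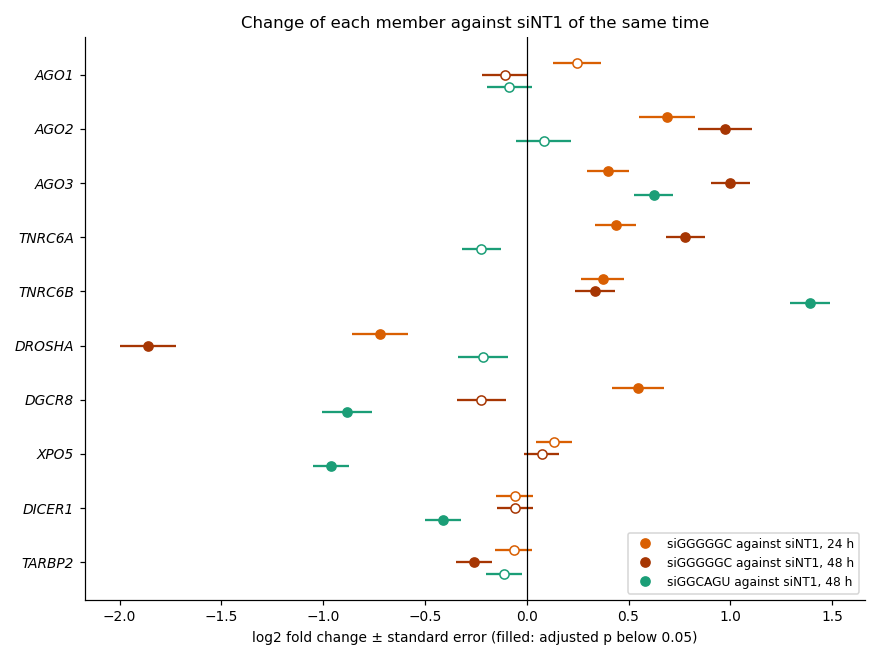
Log2 fold change of each of the 10 genes against siNT1 of the same time, on the x axis, with bars of 1 standard error from the edgeR fit. Filled points have an adjusted p below 0.05. DROSHA stands lowest, at -1.86 with siGGGGGC at 48 h, and TNRC6B highest, at 1.39 with siGGCAGU.

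The calls were then set beside the seed matches. Of the 4 genes with GCCCCC in the UTR, siGGGGGC raised 3 and lowered 0 at 24 h, and raised 2 and lowered 0 at 48 h. Of the 6 genes without it, 2 were higher and 1 lower at 24 h, and 2 were higher and 2 lower at 48 h. Of the 7 genes with ACTGCC, siGGCAGU raised 2 and lowered 2, and of the 3 without it 0 were higher and 1 was lower. Of all genes, with or without a match, 10.6% were higher and 8.31% lower with siGGGGGC at 24 h. At 48 h 27.8% were higher and 27.5% lower with siGGGGGC, and 27.8% higher and 24.9% lower with siGGCAGU. The split rests on the longest UTRs, and the shortest left GCCCCC in DGCR8 alone and ACTGCC in XPO5 and TARBP2. The counts describe 10 genes, and no test was made of them.

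AGO2 (ENSG00000123908, chromosome 8, 140520156 to 140635633, minus strand) encodes the Argonaute that can itself cut a fully paired target. It had 1082 and 1127 TMM-normalized counts with siNT1 at 24 h and 1753 and 1808 with siGGGGGC. At 48 h it had 1540 and 1032 with siNT1, 1415 and 1306 with siGGCAGU, and 2514 and 2521 with siGGGGGC. Both siGGGGGC groups lay above every library of siNT1 and siGGCAGU, while the siNT1 and siGGCAGU libraries at 48 h overlapped. AGO2 rose with siGGGGGC by 0.69 on the log2 scale (standard error 0.137) at 24 h (adjusted p = 0.00245) and by 0.97 with a standard error of 0.133 at 48 h (adjusted p = 1.64e-05). With siGGCAGU the log2 fold change was 0.08 (adjusted p = 0.634), and it depended on the siNT1 library used, at 0.39 (adjusted p = 0.0051) without replicate 1 and -0.19 (adjusted p = 0.14) without replicate 2.

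AGO3 (ENSG00000126070, chromosome 1, 35930718 to 36072500, plus strand) encodes a further Argonaute that silences through TNRC6 partners. Its normalized counts were 332 and 341 with siNT1 and 429 and 457 with siGGGGGC at 24 h. At 48 h they were 346 and 331 with siNT1, 517 and 523 with siGGCAGU, and 700 and 657 with siGGGGGC. The 3 groups at 48 h did not overlap, and the siNT1 libraries of both times overlapped. AGO3 rose by 0.40 with a standard error of 0.103 at 24 h (adjusted p = 0.0135), by 1.00 with a standard error of 0.0948 with siGGGGGC at 48 h (adjusted p = 3.57e-07), and by 0.62 with a standard error of 0.0954 with siGGCAGU (adjusted p = 5.24e-05). The call at 24 h was lost without siNT1 replicate 1 (adjusted p = 0.112), siNT1 replicate 2 (adjusted p = 0.0651) or siGGGGGC replicate 2 (adjusted p = 0.112). The AGO3 3′ UTR holds 3 ACTGCC matches and no GCCCCC match, and the 5′ UTR of its canonical transcript holds 2 copies of GCCCCC. The part of these matches in the rises was not tested.

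AGO1 (ENSG00000092847, chromosome 1, 35869808 to 35930532, plus strand) encodes another widely expressed Argonaute, and it was not called against siNT1. It had 506 and 484 normalized counts with siNT1 and 582 and 595 with siGGGGGC at 24 h (log2 fold change 0.25, adjusted p = 0.165). At 48 h AGO1 had 838 and 652 with siNT1, 677 and 721 with siGGCAGU (log2 fold change -0.09, adjusted p = 0.536) and 687 and 691 with siGGGGGC (log2 fold change -0.11, adjusted p = 0.42). The siNT1 libraries at 48 h spanned both treated groups. At 24 h the groups did not overlap, and AGO1 was called when the 24 h libraries were fitted alone (adjusted p = 0.0456). Without siNT1 replicate 2 at 48 h it was also called, lower, with siGGGGGC (log2 fold change -0.29, adjusted p = 0.0309) and with siGGCAGU (log2 fold change -0.26, adjusted p = 0.0476).

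AGO1 and AGO3 lie side by side on the same strand of chromosome 1 with 185 bases between them, and AGO4, the fourth human Argonaute gene, ends 11917 bases before AGO1. AGO4 had 114 and 112 normalized counts with siNT1 and 179 and 224 with siGGGGGC at 24 h. Later, at 48 h, AGO4 had 104 and 114 with siNT1, 266 and 305 with siGGCAGU, and 205 and 204 with siGGGGGC. AGO4 rose by 0.83 (adjusted p = 0.00163) at 24 h, by 0.91 (adjusted p = 5.99e-05) with siGGGGGC at 48 h and by 1.39 (adjusted p = 4.87e-07) with siGGCAGU, while AGO1 between its neighbours on this cluster was not called. Per kb of exon, AGO2 made up the largest share of the 4 Argonaute transcripts in every group, from 43.2% ± 2.73 (SD, n = 2) with siGGCAGU to 59.4% ± 0.338 (SD, n = 2) with siGGGGGC at 48 h. The AGO1 share was 32.2% ± 0.501 (SD, n = 2) with siNT1 at 48 h and 18.3% ± 0.136 (SD, n = 2) after siGGGGGC. The AGO4 share was 9.11% ± 2.3 (SD, n = 2) with siNT1 at 48 h and 19.3% ± 1.76 (SD, n = 2) with siGGCAGU.

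TNRC6A (ENSG00000090905, chromosome 16, 24610209 to 24827632, plus strand) encodes GW182, the founding member of the scaffold family. It had 1195 and 1225 normalized counts with siNT1 and 1609 and 1664 with siGGGGGC at 24 h. At the later time TNRC6A had 1565 and 1397 with siNT1, 1156 and 1374 with siGGCAGU, and 2594 and 2482 with siGGGGGC. The siGGGGGC group at 48 h was above all other libraries, and siGGCAGU libraries were below both siNT1 libraries of that time. TNRC6A rose with siGGGGGC by 0.44 with a standard error of 0.0985 at 24 h (adjusted p = 0.00581) and by 0.78 with a standard error of 0.0953 at 48 h (adjusted p = 5.35e-06). The call at 24 h was lost without siNT1 replicate 1 (adjusted p = 0.0728) or siGGGGGC replicate 2 (adjusted p = 0.0571). With siGGCAGU the log2 fold change was -0.22 (adjusted p = 0.064), which was past the threshold without siNT1 replicate 2 (adjusted p = 0.032) or siGGCAGU replicate 2 (adjusted p = 0.00709), with DESeq2 size factors (adjusted p = 0.048) and with no filter on low counts (adjusted p = 0.0227).

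TNRC6B (ENSG00000100354, chromosome 22, 40044817 to 40335808, plus strand), the closest relative of TNRC6A among the 10, had the largest rise among these genes, and it came with siGGCAGU. It had 551 and 508 normalized counts with siNT1 and 655 and 717 with siGGGGGC at 24 h. TNRC6B had, at 48 h, 730 and 613 with siNT1, 830 and 860 with siGGGGGC, and 1739 and 1767 with siGGCAGU. The siGGCAGU libraries stood 2.62-fold above siNT1, far outside the spread of any other group (log2 fold change 1.39, standard error 0.0982, adjusted p = 1.41e-08), and the TNRC6B UTR holds 5 ACTGCC matches. Against siNT1, siGGGGGC raised TNRC6B by 0.37 with a standard error of 0.106 at 24 h (adjusted p = 0.0222) and by 0.33 with a standard error of 0.0993 at 48 h (adjusted p = 0.00981). The first of these calls was lost without siNT1 replicate 1 (adjusted p = 0.0748), siNT1 replicate 2 (adjusted p = 0.159) or siGGGGGC replicate 2 (adjusted p = 0.173). The second was lost without siNT1 replicate 2 (adjusted p = 0.131) or siGGGGGC replicate 2 (adjusted p = 0.0745), and with no filter on low counts (adjusted p = 0.206).

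TNRC6C, the third scaffold gene, was called in the same comparisons with siNT1 as TNRC6A. It rose by 0.62 (adjusted p = 0.0318) with siGGGGGC at 24 h and by 1.04 (adjusted p = 5.28e-05) at 48 h, and with siGGCAGU its log2 fold change was -0.11 (adjusted p = 0.608). Per kb of exon, TNRC6B made up 20.8% ± 0.401 (SD, n = 2) of the family in the siNT1 libraries at 48 h, 15.9% ± 0.785 (SD, n = 2) after siGGGGGC and 44.4% ± 2.06 (SD, n = 2) after siGGCAGU. The TNRC6A share was 71.0% ± 1.66 (SD, n = 2) with siNT1 and 49.3% ± 3.2 (SD, n = 2) after siGGCAGU.

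**Figure D3:**
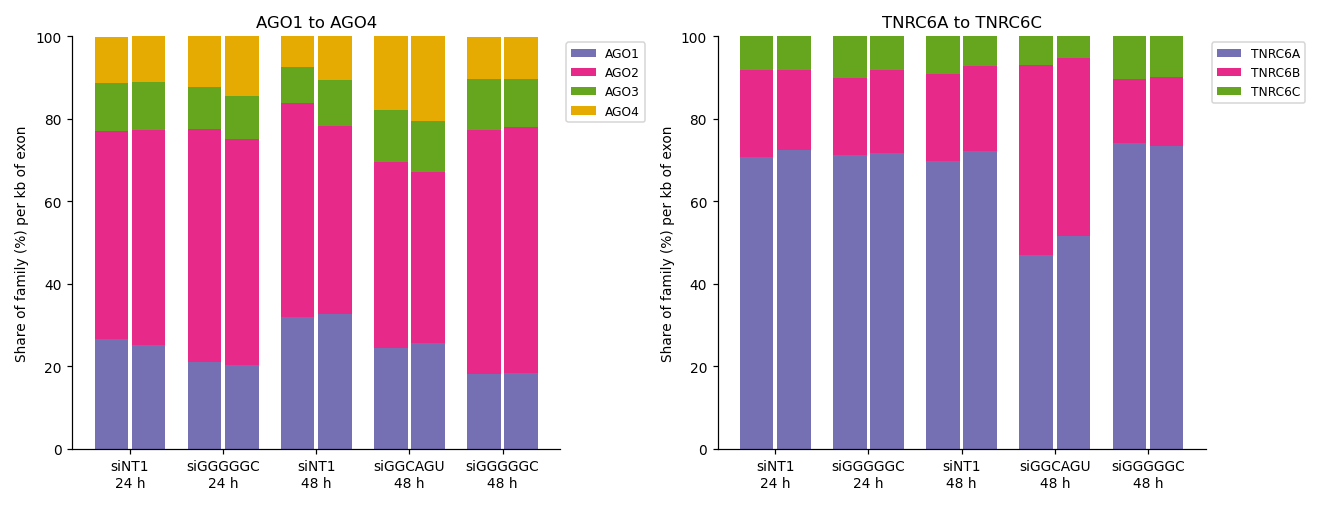
Composition of the Argonaute transcripts (left) and TNRC6 transcripts (right) per kb of exon, in percent, with a bar for each library in pairs by group. AGO2 is the largest Argonaute share in every library, and the TNRC6B share is 45.9% and 43.0% in the siGGCAGU libraries against 15.4% to 21.1% in the others.

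DROSHA (ENSG00000113360, chromosome 5, 31400494 to 31532196, minus strand), the nuclease of the microprocessor, had the largest fall among these genes. It had 372 and 397 normalized counts with siNT1 and 224 and 241 with siGGGGGC at 24 h. The DROSHA counts at 48 h were 565 and 437 with siNT1, 418 and 441 with siGGCAGU, and 130 and 144 with siGGGGGC. Both siGGGGGC groups lay below every other library, and the siGGCAGU libraries overlapped those of siNT1. DROSHA fell by 0.72 on the log2 scale with a standard error of 0.139 at 24 h (adjusted p = 0.00193) and fell by 1.86 with a standard error of 0.137 at 48 h (adjusted p = 2.66e-08), which left 0.275 of the siNT1 level. With siGGCAGU the log2 fold change was -0.21 (adjusted p = 0.152), and it was -0.40 (adjusted p = 0.0115) without siNT1 replicate 2 at 48 h and -0.0295 (adjusted p = 0.863) without siNT1 replicate 1.

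DGCR8 (ENSG00000128191, chromosome 22, 20080221 to 20111877, plus strand), the RNA-binding partner of DROSHA, did not follow it. It had 325 and 397 normalized counts with siNT1 and 570 and 483 with siGGGGGC at 24 h. DGCR8 at 48 h had 510 and 496 with siNT1, 450 and 413 with siGGGGGC, and 252 and 291 with siGGCAGU. The siGGCAGU libraries of DGCR8 were thus the lowest, and its UTR holds no match to that duplex and 2 to siGGGGGC. The siGGGGGC libraries at 24 h lay on both sides of the siNT1 libraries at 48 h. The part of the matches in these levels was not tested. DGCR8 rose by 0.55 with a standard error of 0.127 with siGGGGGC at 24 h (adjusted p = 0.00713), a call that was lost without siNT1 replicate 1 (adjusted p = 0.128) or siGGGGGC replicate 1 (adjusted p = 0.104). At 48 h its log2 fold change was -0.22 with siGGGGGC (adjusted p = 0.126), and it fell by 0.88 with a standard error of 0.123 with siGGCAGU (adjusted p = 2.08e-05).

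The ratio of DROSHA to DGCR8 normalized counts went in opposite directions with the duplexes. It was 1.14 and 1.0 with siNT1 and 0.394 and 0.5 with siGGGGGC at 24 h. At 48 h it was 1.11 and 0.88 with siNT1, 1.66 and 1.52 with siGGCAGU, and 0.289 and 0.349 with siGGGGGC. All siGGGGGC libraries lay below, and both siGGCAGU libraries above, the range of the siNT1 libraries.

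Since the DROSHA 3′ UTR (938 bases) held no GCCCCC, its coding sequence was searched too, a search added after the values had been seen. The coding sequence of its canonical transcript held 4 copies, where 6.99% of 19576 genes held at least 4, and the sites are shown with the match in capitals.
DROSHA coding sequence, chr5:31526726-31526731, minus strand: tcaaactctccaGCCCCCaattttctccct
DROSHA coding sequence, chr5:31526490-31526495, minus strand: ccccttcatgatGCCCCCtccctccatgcc
DROSHA coding sequence, chr5:31526463-31526468, minus strand: gcctcatcccccGCCCCCtccagtcatgcc
DROSHA coding sequence, chr5:31493216-31493221, minus strand: atgtttgcacatGCCCCCctgaccaatatt

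Coding copies were counted in the other genes too, and their part in the changes was not tested. GCCCCC was in the coding sequence of 7 of the 10 genes, where 41.3% of all genes held it. TNRC6B held 5 copies (4.6% of genes held at least 5) and was higher with siGGGGGC, in calls lost when some libraries were left out. The control word CGACTA was in 1 of the 10 coding sequences, that of DICER1, where 10.1% of all genes held it. ACTGCC was in 7 of the 10 coding sequences, where 38.4% of all genes held it. DICER1 held 4 copies of ACTGCC and was lower with siGGCAGU, and XPO5 and DGCR8, both lower, held 0. TNRC6A held 3 and was not called, at a log2 fold change of -0.22 (adjusted p = 0.064) with siGGCAGU.

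XPO5 (ENSG00000124571, chromosome 6, 43522334 to 43576038, minus strand) encodes exportin-5, the export receptor of the hairpin. Its normalized counts were 1275 and 1225 with siNT1 and 1312 and 1433 with siGGGGGC at 24 h. At 48 h they were 1416 and 1309 with siNT1, 1443 and 1421 with siGGGGGC, and 728 and 673 with siGGCAGU. XPO5 stayed within 1225 to 1443 in the 8 libraries of siNT1 and siGGGGGC, and siGGCAGU lay apart from them. It fell by 0.96 on the log2 scale with a standard error of 0.0896 with siGGCAGU (adjusted p = 2.76e-07), to 0.514 of the siNT1 level. With siGGGGGC the log2 fold changes were 0.14 at 24 h (adjusted p = 0.331) and 0.07 at 48 h (adjusted p = 0.5). XPO5 shares 348 exon bases, 4.1% of its exon length, with POLR1C on the opposite strand (924 to 1878 counts), and the strand setting of the counting was not stated, so reads there cannot be assigned with certainty.

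DICER1 (ENSG00000100697, chromosome 14, 95086228 to 95158010, minus strand) encodes the cytoplasmic nuclease of the pathway. It was called lower with siGGCAGU and was not called with siGGGGGC. It had 1908 and 1920 normalized counts with siNT1 and 1786 and 1889 with siGGGGGC at 24 h. At 48 h DICER1 had 2155 and 1964 with siNT1, 1975 and 1985 with siGGGGGC, and 1450 and 1640 with siGGCAGU. Both siGGCAGU libraries lay below all others. DICER1 fell by 0.41 on the log2 scale with a standard error of 0.0884 with siGGCAGU (adjusted p = 0.00105), and with siGGGGGC its log2 fold changes were -0.06 at 24 h (adjusted p = 0.709) and -0.06 at 48 h (adjusted p = 0.61).

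TARBP2 (ENSG00000139546, chromosome 12, 53500921 to 53506431, plus strand), which encodes the double-stranded RNA-binding partner of DICER1, was the least variable of the 10 after DICER1. Its normalized counts were 1085 and 1140 with siNT1 and 1065 and 1062 with siGGGGGC at 24 h (log2 fold change -0.06, adjusted p = 0.678). At 48 h they were 977 and 976 with siNT1, 894 and 911 with siGGCAGU (log2 fold change -0.11, adjusted p = 0.298), and 764 and 867 with siGGGGGC. TARBP2 fell by 0.26 on the log2 scale with a standard error of 0.0883 with siGGGGGC at 48 h (adjusted p = 0.0211). This call was lost without siGGGGGC replicate 1 (adjusted p = 0.221) or siNT1 replicate 2 (adjusted p = 0.0506), and in the Wald test of DESeq2 (adjusted p = 0.0554). The other partner of DICER1, PRKRA (PACT), was not called against siNT1 in any of the 3 comparisons (log2 fold changes 0.0012, 0.17 and -0.19, adjusted p = 0.996, 0.216 and 0.171).

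**Figure D4:**
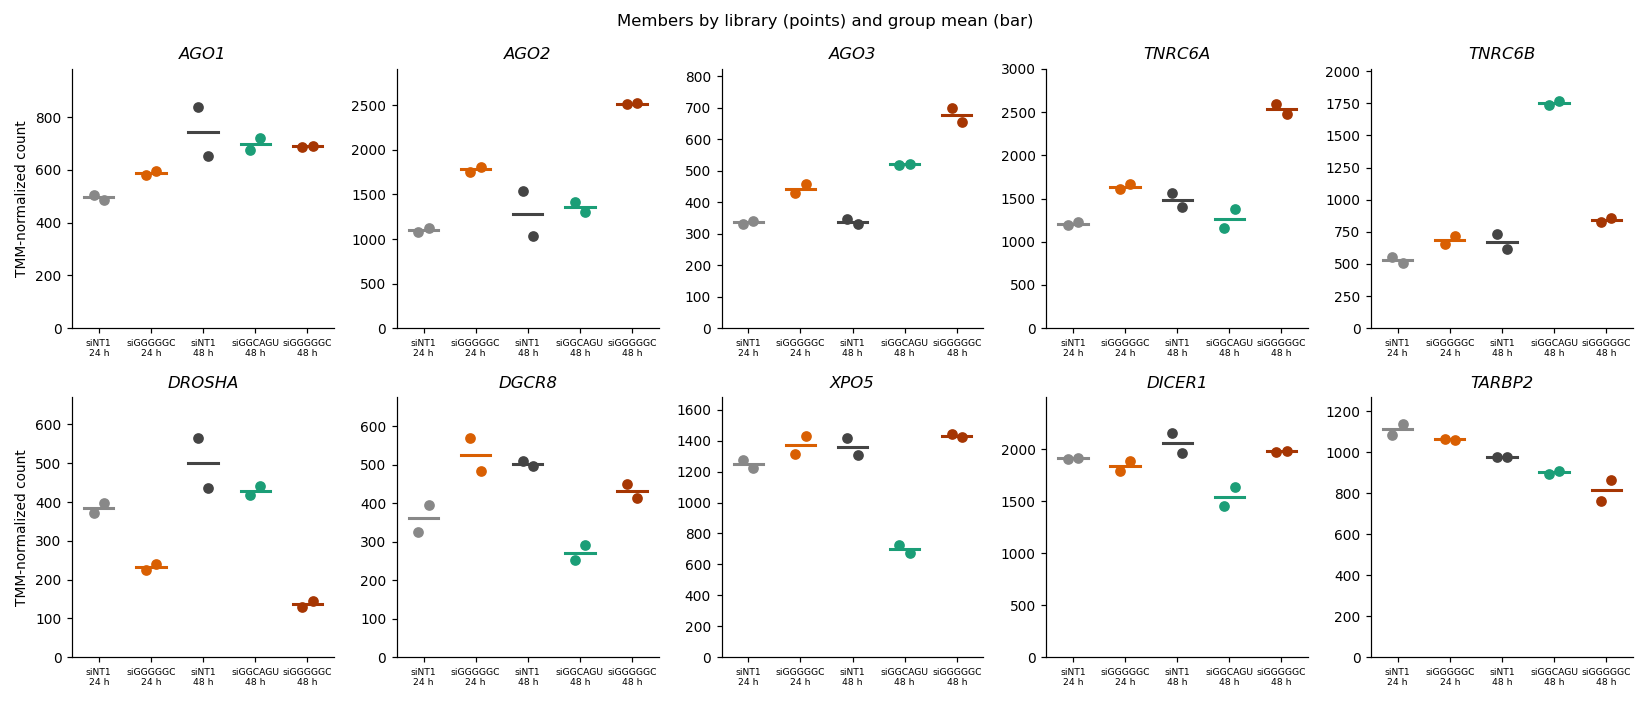
TMM-normalized counts of the 10 genes in each library (points) with the group mean (bar), from siNT1 and siGGGGGC at 24 h to siNT1, siGGCAGU and siGGGGGC at 48 h; every y axis starts at 0. DROSHA is lowest in both siGGGGGC groups (224 and 241, then 130 and 144), XPO5 in siGGCAGU (728 and 673), and TNRC6B is highest in siGGCAGU (1739 and 1767).

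Levels between genes were compared per kb of exon, as the mean of the 5 groups. TARBP2 was highest at 238 normalized counts per kb, followed by XPO5 (144), TNRC6A (125), AGO2 (102), DICER1 (84.3) and DGCR8 (57.1). AGO1 (45.8), TNRC6B (44.9) and DROSHA (43.3) were close together, within the range over the groups of each, and AGO3 was lowest (21.9). Per kb of the longest transcript in place of all exons, DICER1 (147) came before AGO2 (110), and DROSHA (62.2) before TNRC6B (49.1) and AGO1 (46.9). The highest group stood 3.65-fold above the lowest for DROSHA, 3.31-fold for TNRC6B and 2.28-fold for AGO2, and 1.36-fold for TARBP2 and 1.33-fold for DICER1. With siGGGGGC at 48 h the DROSHA level (17.6 per kb) came below that of AGO3 (32.1).

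To compare the duplexes directly, siGGGGGC was set against siGGCAGU at 48 h, where both were used at the same dose. Of the 10 genes, 6 were higher with siGGGGGC (AGO2, AGO3, DICER1, DGCR8, XPO5 and TNRC6A) and 2 were lower (DROSHA and TNRC6B), where 26.7% of all genes were higher, 27.6% lower and 54.3% either. XPO5 was higher by 1.03 with a standard error of 0.0904 (adjusted p = 1.35e-07) and TNRC6A by 1.00 with a standard error of 0.0967 (adjusted p = 4.01e-07). DROSHA was lower, at -1.65 with a standard error of 0.14 (adjusted p = 9.85e-08), as was TNRC6B at -1.05 with a standard error of 0.0984 (adjusted p = 2.76e-07). The other log2 differences called were 0.89 for AGO2 (adjusted p = 4.06e-05), 0.66 for DGCR8 (adjusted p = 0.0004), 0.38 for AGO3 (adjusted p = 0.00288) and 0.36 for DICER1 (adjusted p = 0.00317). AGO1 (-0.02 with a standard error of 0.112, adjusted p = 0.881) and TARBP2 (-0.15 with a standard error of 0.0896, adjusted p = 0.184) were not called. All 8 calls were kept whichever library was left out.

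To determine whether the effect of siGGGGGC differed between the times, its log2 fold change at 24 h was subtracted from that at 48 h as an interaction term. It differed for 3 of the 10, higher at 48 h for AGO3 and lower for DROSHA and DGCR8. Of all genes 13.4% were higher, 15.2% lower and 28.6% either, so that 3 of 10 lay near the background. DROSHA moved further down (difference -1.14 with a standard error of 0.196, adjusted p = 0.000502), from -0.72 at 24 h to -1.86 at 48 h. AGO3 moved further up (0.61 with a standard error of 0.14, adjusted p = 0.0043), a call that was lost with no filter on low counts (adjusted p = 0.0714). The effect on DGCR8 went from 0.55 to -0.22 (difference -0.77 with a standard error of 0.174, adjusted p = 0.00389). The differences of AGO2 (0.28, adjusted p = 0.288), TNRC6A (0.34, adjusted p = 0.0744) and AGO1 (-0.36, adjusted p = 0.113) were not called, and those of DICER1, XPO5, TARBP2 and TNRC6B had adjusted p-values of 0.268 to 0.993. Without siNT1 replicate 1 at 48 h the AGO2 difference was called (0.58, adjusted p = 0.00411), and without siNT1 replicate 2 it was 0.00559. The AGO1 difference was called without that replicate 2 (-0.54, adjusted p = 0.00848) and with no filter on low counts (-0.49, adjusted p = 0.0361). TNRC6A was called without either siGGCAGU library (adjusted p = 0.0345 and 0.0341), with the libraries compared fitted alone (0.0233), with upper-quartile scaling (0.0457) and with a mean count of at least 50 (0.0494).

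The control libraries themselves differed between the times. From 24 h to 48 h with siNT1, AGO1 rose by 0.58 with a standard error of 0.113 (adjusted p = 0.00418), DGCR8 by 0.48 with a standard error of 0.122 (adjusted p = 0.0168) and TNRC6B by 0.34 with a standard error of 0.103 (adjusted p = 0.0353), where 9.37% of all genes were higher, 7.19% lower and 16.6% either. DROSHA (0.38, adjusted p = 0.05) and TNRC6A (0.29, adjusted p = 0.052) lay at the threshold, and AGO2, AGO3, DICER1, XPO5 and TARBP2 had adjusted p-values of 0.156 to 0.973. The count of 3 went to 1 without siNT1 replicate 1 or 2 at 24 h or replicate 1 at 48 h, to 6 without siNT1 replicate 2 at 48 h, and to 5 without either siGGCAGU library. Time and medium change cannot be told apart in this comparison.

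A list of 93 further genes of the pathway, from nuclear cofactors to decay enzymes, was examined to place the 10, and 87 of them were tested. With siGGGGGC, 15 were higher and 6 lower at 24 h, where 10.6% of all genes were higher and 8.31% lower. At 48 h 32 were higher and 25 lower, where 27.8% of all genes were higher and 27.5% lower. With siGGCAGU 12 were higher and 39 lower, with a median log2 fold change of -0.24 beside 0.024 for all genes, of which 27.8% were higher and 24.9% lower. The list as a whole and the shorter lists within it were counted and not tested. The count of 21 at 24 h was 11 without either siNT1 library, 12 or 13 without a siGGGGGC library, and 37 with the libraries compared fitted alone.

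With siGGCAGU, where 24.9% of all genes were lower, the nuclear processing cofactors gave 0 higher and 8 lower of 12, and the export and import genes 0 higher and 4 lower of 4. The latter were RAN, the GTPase that exportins need (-0.48, adjusted p = 0.000648), its exchange factor RCC1 (-1.06, adjusted p = 3.13e-08), XPO1 (-0.55, adjusted p = 5.28e-05) and the importin IPO8 (-0.64, adjusted p = 0.000537). Among the nuclear cofactors that were lower was HNRNPA1, which encodes an RNA-binding protein (-0.84, adjusted p = 0.000492). With siGGGGGC at 48 h, where 27.5% of all genes were lower, the nuclear cofactors gave 3 higher and 7 lower. XPO1, RCC1 and IPO8 were lower, while RAN was not called (0.22, adjusted p = 0.0695). IPO8 lay near the threshold (-0.31, adjusted p = 0.0488), at 1073 and 1047 normalized counts against 1556 and 1077 with siNT1. TSNAX, a subunit of the C3PO nuclease, was higher with both duplexes at 48 h, at 0.99 (adjusted p = 1.25e-06) with siGGGGGC and 0.96 (adjusted p = 1.63e-06) with siGGCAGU. ADAR, the editing enzyme that also binds DICER1, was lower with siGGGGGC by -0.70 (adjusted p = 0.000158) at 24 h and -1.19 (adjusted p = 5.88e-08) at 48 h, and lower with siGGCAGU by -0.26 (adjusted p = 0.0254). Its normalized counts with siGGGGGC were 826 and 762 at 24 h, against 1349 and 1237 with siNT1.

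Downstream of the TNRC6 proteins, the deadenylation list gave 10 higher and 3 lower of 19 with siGGGGGC at 48 h, and 2 higher and 7 lower with siGGCAGU, where 27.8% of all genes were higher with either duplex, 27.5% were lower with siGGGGGC and 24.9% with siGGCAGU. The nuclease subunit PAN2 was lower with siGGGGGC (-1.35, adjusted p = 9.78e-06) while its partner PAN3 was higher (0.67, adjusted p = 3.38e-05). The poly(A)-binding protein gene PABPC4 was lower with both duplexes at 48 h, by -1.03 (adjusted p = 2.38e-07) with siGGGGGC and -1.31 (adjusted p = 1.54e-08) with siGGCAGU. The deadenylase regulators BTG2 (0.95, adjusted p = 2.61e-05) and TOB1 (0.69, adjusted p = 0.000129) were higher with siGGGGGC at 48 h, where TOB1 had been lower at 24 h (-0.49, adjusted p = 0.0403). The decapping and decay list gave 2 higher and 6 lower of 15 with siGGCAGU, and 5 higher and 2 lower with siGGGGGC at 48 h. With siGGGGGC at 24 h it gave 3 higher and 0 lower, where 10.6% of all genes were higher and 8.31% lower. DCP2 of this list, the decapping enzyme, was higher in all 3 comparisons. It had 2263 and 2440 normalized counts with siNT1 and 6057 and 6639 with siGGGGGC at 24 h, and at 48 h 1808 and 1911 with siNT1, 4080 and 4059 with siGGCAGU and 7279 and 7197 with siGGGGGC. The siNT1 and treated libraries of DCP2 did not overlap. Its log2 fold changes were 1.43 (adjusted p = 6.86e-08), 1.96 (adjusted p = 1.5e-10) and, with siGGCAGU, 1.13 (adjusted p = 3.28e-08). WTIP and AJUBA, LIM-domain proteins that bind Argonaute complexes, were higher with siGGGGGC at 24 h (1.08, adjusted p = 4.14e-05 and 0.73, adjusted p = 2.86e-05). At 48 h both were higher with siGGGGGC (1.12, adjusted p = 9.28e-07 and 0.47, adjusted p = 0.000197) and with siGGCAGU (0.73, adjusted p = 8.61e-05 and 0.84, adjusted p = 5.23e-07). LIMD1, a further LIM-domain gene, was lower with siGGCAGU (-0.37, adjusted p = 0.00279). With siGGGGGC LIMD1 was not called at 24 h (0.16, adjusted p = 0.257) or 48 h (-0.22, adjusted p = 0.0519). The adaptor list that holds these genes gave 3 higher and 7 lower of 13 with siGGCAGU. With siGGGGGC this list gave 4 higher and 0 lower at 24 h, and 6 higher and 2 lower at 48 h. Of the germline Argonaute relatives PIWIL2 reached 50.1 and 62.2 normalized counts with siGGGGGC at 48 h against at most 15 in the other libraries (log2 fold change 3.65, adjusted p = 1.94e-06).

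The genes whose log2 levels followed the 3 most variable of the 10 most closely over the 10 libraries were looked up among 5497 genes with a mean of at least 500 counts. For DROSHA these were SASH1 (Pearson r = 0.991), TGM2 (0.989) and DOCK4 (0.986). For TNRC6B they included CORO1B (0.988) and MAGED2 (0.986), and for AGO2 they were KIF2A (0.979), DNAJC5 (0.975) and MAP2K2 (0.97). The points are 5 groups of 2 libraries with 1 treatment each, so these values describe likeness of pattern only.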

How the data were processed

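RNA after ribosomal depletion was sequenced paired-end from 10 HeyA8 libraries. The authors trimmed reads with Trimmomatic, aligned them to hg38 (the labels name TopHat, the methods TopHat or STAR) and counted exonic reads per Ensembl gene with htseq. The deposited files hold raw counts, with 0 entries that name no gene. The 4 deposited tables of comparisons (DESeq2 fold changes and p-values) were not used. Groups came from the labels, which name the duplexes siMxy and si34a and give no seed. These were read as siGGGGGC and siGGCAGU from the duplexes and times that the authors describe.

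Counts were fitted with edgeR 4.0.16 (TMM, filterByExpr, quasi-likelihood test) in a single model of 5 groups with 5 residual degrees of freedom, and p-values were adjusted by Benjamini-Hochberg over 16905 genes; the biological coefficient of variation was 0.0837. The script was tested on simulated data. Alternatives were DESeq2 1.42.0, other scalings and filters, a replicate block and leaving out each library. Gene models were GENCODE 44, which held 98.9% of the gene IDs. All 10 genes were named in each comparison. Of the other pathway genes, AGO4, TNRC6C, PRKRA and RAN were always eligible, as were the 5 largest rises and falls called against siNT1 (3 in the other comparisons) with no overlap of libraries. XPO1, IPO8, PAN3 and LIMD1 were named after their values were seen, as were the values of a gene outside its own comparison. Some genes that these rules select are not reported here. The 10 genes and the lists were chosen with earlier results of these data known. Intervals and spreads cover these wells only.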

Additional observations from a re-analysis of the deposited data

Results flagged for a closer look

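The effect of siGGGGGC differed between 24 h and 48 h, by the interaction term of the edgeR quasi-likelihood fit, for 3 of the 10 genes. Of all genes tested 28.6% were called in this way, so the count of 3 of 10 lay near the background. The difference on the log2 scale, 48 h minus 24 h, was -1.14 for DROSHA, 0.607 for AGO3 and -0.768 for DGCR8. DROSHA and AGO3 moved further in the direction they had at 24 h, and DGCR8 went from higher to not called. The siNT1 libraries, on which both effects rest, rose from 24 h to 48 h by 0.48 for DGCR8, while AGO3 had a log2 difference of 0.0069 and DROSHA of 0.38. The part of these control levels in the differences was not tested.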

How the results depend on the processing

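Of 1200 values of the 10 genes under 20 alternatives, 1115 kept their direction and side of the threshold, 28 lost the threshold, 33 gained it and 24 turned direction. The calls of DROSHA and AGO2 with siGGGGGC, and the 5 calls with siGGCAGU, were kept in every alternative. Leaving out a library in turn also leaves fewer degrees of freedom. It gave 2 to 6 genes called of the 10 with siGGGGGC at 24 h, 5 to 6 at 48 h, 5 to 8 with siGGCAGU, 8 for siGGGGGC against siGGCAGU, 1 to 6 for siNT1 over time and 3 to 4 for the interaction; of the further pathway genes it gave 11 to 25, 43 to 65, 43 to 54, 42 to 62, 6 to 44 and 24 to 43. With the libraries compared fitted alone, 37 further genes were called at 24 h. The share of all genes called is given only for the fit of all libraries. There it was 18.9% and 55.3% with siGGGGGC at 24 h and 48 h, and 52.7% with siGGCAGU. It was 54.3% between the duplexes, 16.6% for siNT1 over time and 28.6% for the interaction. A change in these counts, here or above, cannot be told from a change in calls over all genes. For siNT1 over time, 5 of the 10 were called with no filter on low counts, with a mean count of at least 50 and with the likelihood ratio test. In the shortest UTRs GCCCCC was in 1 gene and ACTGCC in 2. With no filter the median of all genes in the interaction was 0.14.

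All turns of direction were in log2 values that were not called in the fit of all libraries. They were XPO5 with siGGGGGC at 48 h with no filter (-0.0486), AGO1 between the duplexes with DESeq2 size factors (0.00153), in DESeq2 (0.0019) and without siGGCAGU replicate 2 (0.0198), and AGO3 in siNT1 over time with upper-quartile scaling (-0.0425). The DICER1 interaction was -0.027 without RN7SL2 and SNORD3A in the library sizes and -0.131 with no filter, and the TNRC6B interaction was 0.00151 with upper-quartile scaling. Leaving out a library gave ranges with turns of direction for AGO1 (-0.29 to 0.0692) and DICER1 (-0.13 to 0.00108) with siGGGGGC at 48 h, for AGO1 (-0.264 to 0.0955) and AGO2 (-0.186 to 0.389) with siGGCAGU, for AGO1 (-0.0685 to 0.0198) between the duplexes, for AGO2 (-0.0875 to 0.487) and AGO3 (-0.0135 to 0.0459) in siNT1 over time, and for the interactions of DICER1 (-0.0773 to 0.0534) and TNRC6B (-0.176 to 0.0716). The cause was not tested. Per kb of the longest transcript, the levels moved to 110 for AGO2, 23.6 for AGO3, 147 for DICER1, 62.2 for DROSHA, 89.2 for DGCR8, 230 for XPO5, 525 for TARBP2, 191 for TNRC6A and 49.1 for TNRC6B.

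Same-numbered libraries share only a number, and their deviations correlated at 0.047, -0.22, -0.1, 0.029 and 0.024. With the replicate block, 6 and 6 of the 10 genes were called with siGGGGGC, 5 with siGGCAGU, 8 between the duplexes, 2 for siNT1 over time (TNRC6B was lost, adjusted p = 0.053) and 3 for the interaction. With siNT1 numbers crossed at 48 h, added after seeing the data, these counts were 6, 6, 5, 8, 4 and 3.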
